A study of Arabidopsis thaliana with 12 samples.

Results

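The shoots of Arabidopsis thaliana seedlings of the line labelled aladin were compared with shoots of its wild type, the accession Wassilewskija-4. The comparison used the 3 arrays titled aladin shoot and the 3 titled Wassilewskija-4 shoot, 6 of the 12 arrays of the series, and the other 6 held roots of the same genotypes. All seedlings were 10 days old. Seeds had been stratified for 3 days, and seedlings had grown on upright plates of dilute Murashige and Skoog medium with 1% sucrose, myo-inositol, MES buffer and 1% agar under a 16 h photoperiod at 20 °C. Shoots were cut from roots and frozen in liquid nitrogen with no further treatment. The labels call the arrays of a group biological replicates and give neither the allele of the aladin line nor the number of plants in a sample, and p-values here measure the spread between these samples. Of the 38408 probe sets of the Affymetrix Arabidopsis Gene 1.0 ST Array in the table, the 17481 linked to at least 1 named gene were tested.

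The nuclear pore complex is the channel through which RNA and proteins pass between nucleus and cytoplasm. ALADIN is one of its scaffold-associated proteins, with a beta-propeller fold, and mutations of the human gene cause triple A syndrome. In a seedling, the shoot holds cotyledons, young leaves and the shoot meristem, in which hormones such as cytokinin and auxin, the formation of stomata and responses to cold, touch and microbes are read out by well-known marker genes.

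Shoot values are RMA signals on the log2 scale, so that a difference of 1 is a 2-fold change, and each array is called a library. Median signals of the 6 shoot libraries lay between 5.86 and 5.95, and over all probe sets no library stood apart: Pearson's r was 0.983 to 0.984 within wild-type shoot, 0.986 to 0.987 within aladin shoot and 0.981 to 0.983 between the groups. In single probe sets, aladin replicate 2 lay at least 1 log2 unit under both other aladin libraries in 25, against 4 and 8 for aladin replicates 1 and 3 and 10 to 16 for the wild-type libraries. On the high side the order was the reverse. Aladin replicate 2 lay at least 1 log2 unit above both others in 3, aladin replicates 1 and 3 in 14 and 13, and the wild-type libraries in 8 to 19. The shoot identity of the libraries was checked on markers. The mean signal of the 5 measured of 20 green tissue markers was 10.37 to 10.48 in wild-type shoot and 10.34 to 10.42 in aladin shoot, against 6.46 to 6.68 in wild-type root. Root markers (3 of 15 measured) had means of 7.32 to 7.56 in wild-type shoot and 7.27 to 7.50 in aladin shoot, against 9.32 to 9.78 in wild-type root. Of 8 xylem and phloem markers 0 were measured, and of 9 flower and pollen markers only VGD1 was, at 3.08 to 3.83 over the shoot libraries. The number of arrays limits the precision, and the median SD within a group was 0.168 in shoot and 0.123 in root.

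In the shoot libraries labelled aladin, 40 probe sets rose and 18 fell past an adjusted p of 0.05 (limma on the shoot libraries alone), which is 0.332% of the 17481 tested, 0.229% higher and 0.103% lower. ALADIN itself, the stress-response zinc finger gene STZ and the neighbouring genes AT5G53230 and AT5G53240 were among the rises, and the falls were led by AT2G18150, the cytokinin response gene ARR15 and the cold gene COR15A. Of these changes, 33 rises and 11 falls were at least 2-fold, and the smallest was 0.64 log2 units. The values of the groups did not overlap for any of the 58, and for 19% of all probe sets tested (8% higher and 11% lower in aladin). The 58 were selected by p on these same libraries, which favours groups that do not overlap, so this adds no support to the calls. Exactly 1 gene was linked to 55 of the 58, of which 16 carry a gene symbol and 39 are named by locus only. The median difference over all tested probe sets was -0.02, and wild-type signals were lower for the rises (median 5.88) than for the falls (median 7.37), with 5.71 over all tested. A further 79 probe sets, 43 higher and 36 lower, lay between adjusted p values of 0.05 and 0.10, and 2087 (11.9%) had an unadjusted p under 0.05, of which 933 were higher and 1154 lower.

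**Figure D1:**
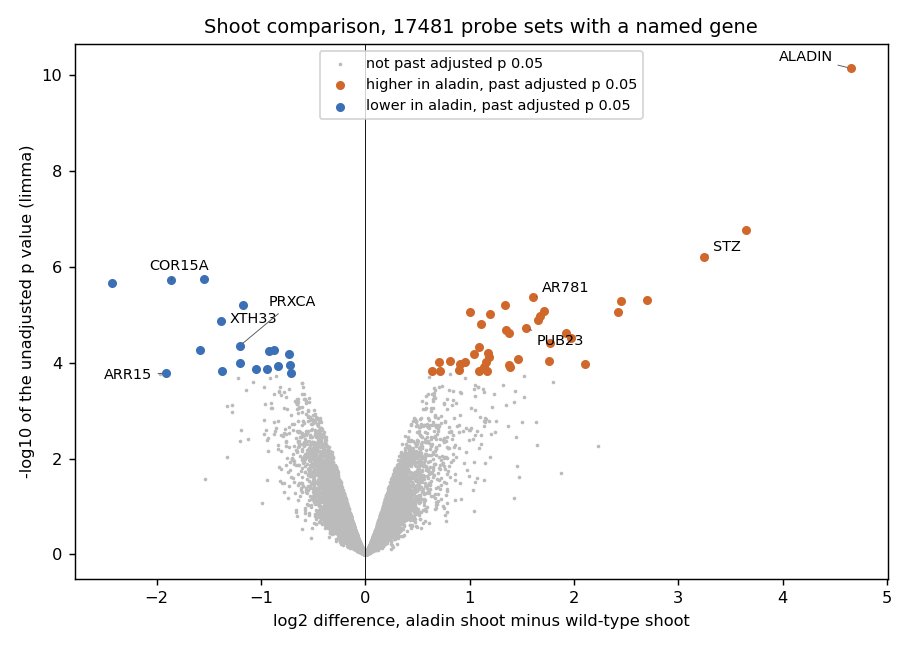
The log2 difference of each tested probe set, aladin shoot minus wild-type shoot, against the -log10 of its unadjusted limma p value. Orange points are the 40 rises and blue points the 18 falls past an adjusted p of 0.05, with ALADIN at 4.65 far to the right and STZ at 3.25, and grey points did not pass.

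ALADIN (AT3G56900, chromosome 3) is the gene after which the line is named, and those libraries gave it a higher signal than wild type. The wild-type shoot libraries gave 7.71, 7.80 and 7.71 and the aladin shoot libraries 12.41, 12.35 and 12.41. The groups lay far apart, and the difference was 4.65 log2 units (SE 0.09, 25.1-fold, adjusted p = 1.26e-06). It was the smallest adjusted p of the comparison. The labels do not give the position of the mutation relative to the probes, so the libraries are called by their labels throughout. Among the other measured nuclear pore genes none passed: NUP155 had a difference of 0.10 (SE 0.10), SEH1H of -0.08 (SE 0.10) and NUP1 of -0.03 (SE 0.13), and the groups overlapped for all 3. Of the transport receptors and their partners, the exportin gene XPO1B had 8.66, 8.48 and 8.62 in wild type and 8.87, 8.86 and 8.88 in aladin, a difference of 0.28 that did not pass (adjusted p = 0.320).

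The measured genes next to ALADIN differed among themselves. AT3G56920, with 2 reference genes between it and ALADIN, had 4.77, 5.20 and 4.87 in wild-type shoot and 6.95, 6.27 and 6.93 in aladin shoot. The aladin libraries were all higher, by 1.77 log2 units (SE 0.21, adjusted p = 0.0271), and the call ended without any 1 library other than aladin replicate 2 (adjusted p up to 0.123, without aladin replicate 1). AT3G56890, on the other side, differed by 0.67 (adjusted p = 0.0868), AT3G56891 by -0.07 and AT3G56930 by -0.15, and none of these 3 passed. Of the 50 measured genes nearest to ALADIN 1 passed (2%), of the nearest 200 also 1 (0.5%) and of the nearest 940 4 (0.426%), against 0.332% of all tested. The 1 call among the 50 and the 200 was AT3G56920 itself.

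STZ, also named ZAT10, is a C2H2 zinc finger gene known to be induced quickly by cold, salt, wounding and touch, and its product represses transcription. Its signal was 6.05, 6.91 and 6.27 in wild-type shoot and 9.73, 9.73 and 9.51 in aladin shoot. The lowest aladin value lay well above the highest wild-type value, and STZ rose by 3.25 log2 units (SE 0.21, 9.50-fold, adjusted p = 0.00355). CML23, a calmodulin-like calcium sensor, was dim in wild type at 3.62, 3.43 and 3.37 and reached 4.62, 4.34 and 4.31 in aladin. It rose by 0.95 (SE 0.13, adjusted p = 0.0425). These were 2 of the 9 measured genes of the calmodulin-like and touch list, whose median was 0.21, and 0.229% of all tested rose. CML38 (0.79, SE 0.21, adjusted p = 0.205) and CML41 (1.15, SE 0.35, adjusted p = 0.267) also had higher, non-overlapping values in aladin and did not pass, and CML42 had lower ones (-0.36, adjusted p = 0.223). Higher, non-overlapping values were found in 4 of the 9, against 8% of all tested. CML41 passed without aladin replicate 2 (1.60, adjusted p = 0.0352). That library was its lowest in aladin, so leaving it out raises the difference by construction and adds no support for a rise. STZ passed without any 1 library (adjusted p up to 0.0376), whereas CML23 did not pass once any 1 of the 6 was left out (adjusted p from 0.0784 to 0.179, the latter without wild-type replicate 2).

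PUB23 codes for a U-box ubiquitin ligase that, with its close relatives PUB22 and PUB24, is known to dampen immune responses to microbial patterns. It gave 7.09, 7.02 and 6.64 in wild-type shoot and 8.63, 8.55 and 8.20 in aladin shoot. All aladin libraries were higher, and PUB23 rose by 1.54 (SE 0.16, 2.91-fold, adjusted p = 0.0168). It was the 1 call among 10 measured U-box genes (median 0.19), a list chosen after its values were seen, against 0.229% of all tested. PUB22 differed by 0.47 (SE 0.12, adjusted p = 0.194) and PUB24 by 0.62 (SE 0.21, adjusted p = 0.306). The PUB23 call held without aladin replicate 3 and ended without any other library (adjusted p up to 0.0867, without wild-type replicate 2). The WRKY transcription factors, many of which act in defence, held no call among 7 measured, where 0.332% of all tested passed, and WRKY6 was the highest at 0.70 (SE 0.23, adjusted p = 0.288).

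Several rises carried a symbol outside these lists. AR781 went from 6.05, 6.39 and 6.40 in wild type to 7.96, 7.99 and 7.71 in aladin, a rise of 1.60 (SE 0.14, adjusted p = 0.00987) whose call ended only without aladin replicate 1 (0.0685). THI2.2, which codes for a thionin, a small antimicrobial peptide, had 7.33, 7.39 and 7.45 in wild type and 8.51, 8.86 and 8.32 in aladin (1.17, SE 0.15, adjusted p = 0.0348). For both genes the aladin values lay above all wild-type values. PUP15, of the purine permeases, which are membrane transporters of purines and related compounds, had 4.05, 4.51 and 4.29 in wild type and 5.26, 5.55 and 5.61 in aladin (1.18, SE 0.15, adjusted p = 0.0398). ZCF37 rose by 1.09 (SE 0.13, adjusted p = 0.0311), from 4.17, 4.52 and 4.47 to 5.48, 5.34 and 5.62. The groups of PUP15 and ZCF37 were also apart, but neither passed once any 1 library was left out (adjusted p up to 0.126 for PUP15, without wild-type replicate 3, and 0.141 for ZCF37, without aladin replicate 1). The THI2.2 call held without aladin replicate 2 or 3 and ended without the others (up to 0.149, without wild-type replicate 2).

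TPS-CIN is a terpene synthase that makes 1,8-cineole, a volatile monoterpene, and the annotation lists 2 genes under this symbol. Each of 2 probe sets is linked to both genes, so the signal cannot be split between them. On the first, wild type gave 6.57, 6.68 and 6.58 and aladin 7.92, 8.15 and 7.78, a rise of 1.34 (SE 0.12, adjusted p = 0.01). On the second, wild type gave 6.75, 6.67 and 6.73 and aladin 7.87, 7.98 and 7.64, a rise of 1.11 (SE 0.12, adjusted p = 0.0146). On both probe sets every aladin library was higher than every wild-type library. Both calls held without aladin replicate 2 or 3 and ended without any other library (adjusted p up to 0.0685, without aladin replicate 1, and up to 0.0984, without wild-type replicate 2).

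Most of the large rises were of genes that the reference names by locus only, and no role is given to them here. AT5G53230 had 4.90, 5.28 and 4.47 in wild-type shoot and 8.45, 8.42 and 8.72 in aladin shoot (3.65, SE 0.20, 12.5-fold, adjusted p = 0.00152). The next gene on chromosome 5, AT5G53240, had 5.11, 5.15 and 5.14 in wild type and 7.49, 7.58 and 8.43 in aladin (2.70, SE 0.24, adjusted p = 0.00987). Both were higher in every aladin library, and with ALADIN and AT3G56920 they were the only called genes next to each other among measured genes. AT2G23321 (2.45, SE 0.22, adjusted p = 0.00987), AT1G72920 (2.42, SE 0.23, adjusted p = 0.0111) and AT4G29780 (2.11, SE 0.29, adjusted p = 0.0433) rose at least 4.31-fold. AT4G27657 rose by 1.97, AT5G63130 by 1.92, AT2G32200 by 1.76, AT4G05380 by 1.71, AT1G07135 by 1.67 and AT5G36925 by 1.66, with adjusted p values from 0.0111 to 0.0425. The 3 aladin values of AT4G29780 spread widely, at 9.33, 9.59 and 8.37, against 6.87, 7.03 and 7.06 in wild type, and the call ended without any library but aladin replicate 3 (adjusted p up to 0.179, without wild-type replicate 2). AT5G53230 passed without any 1 library (up to 0.0157), and AT5G53240 did not pass without any 1 wild-type library (up to 0.0689, without wild-type replicate 2). AT2G23321 did not pass without wild-type replicate 1 (0.0551) or aladin replicate 1 (0.0685), nor AT1G72920 without wild-type replicate 3 (0.0602) or aladin replicate 1 (0.0685). AT4G27657 and AT2G32200 passed in 1 of the 6 fits with a library left out, AT1G07135 in 2, AT5G63130 in 3 and AT4G05380 and AT5G36925 in 4.

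**Figure D2:**
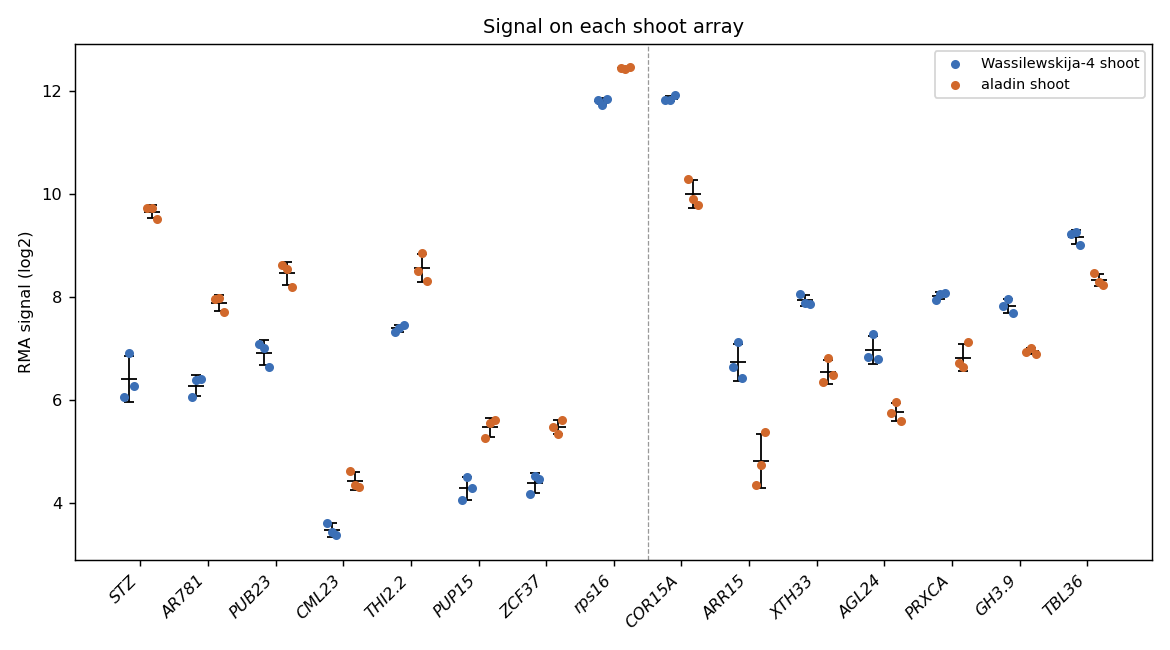
RMA signal (log2) of 15 called genes on each of the 6 shoot libraries, blue for Wassilewskija-4 and orange for aladin, with the mean and SD of each group (n = 3) in black. Left of the dashed line are rises and right of it falls, and in no gene do the 3 blue and 3 orange points overlap.

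Among the falls, the cytokinin list held ARR15, a type-A response regulator gene that cytokinin switches on and whose product damps the response. ARR15 gave 6.65, 7.12 and 6.42 in wild-type shoot and 4.34, 4.74 and 5.37 in aladin shoot. Every aladin library was lower, although they spread over about 1 log2 unit, and ARR15 fell by 1.91 (SE 0.28, 3.77-fold, adjusted p = 0.04995). That adjusted p was the largest of the calls, and the call held without aladin replicate 3 and ended without any other library (up to 0.193, without wild-type replicate 2). It also ended with all probe sets of the table tested (0.142), with a replicate block (0.121) and with array weights (0.0552). The ARR15 call ended as well after quantile normalization (0.0528) and with single-gene probe sets alone (0.0509). RR16, the related gene also called ARR16, had 5.34, 5.73 and 6.24 in wild type and 4.25, 4.46 and 4.78 in aladin, a difference of -1.27 (SE 0.24) that did not pass (adjusted p = 0.0991). The other 6 of the 8 measured genes of the list did not pass either, RR18 having 0.47 and RR23 0.31, and the median of the list was -0.03. Values did not overlap and were lower for 2 of the 8, ARR15 and RR16, and higher for 1, against 11% and 8% of all tested. Whether the other 6 follow cytokinin as ARR15 does was not tested, so the list median is not a reading of the cytokinin response. The 1 call among the 8 stands beside falls in 0.103% of all tested.

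COR15A codes for a cold-induced protein of the chloroplast that protects membranes during freezing. It was bright in wild-type shoot at 11.82, 11.83 and 11.92, and 10.30, 9.91 and 9.79 in aladin shoot. The 3 aladin libraries were all lower, and COR15A fell by 1.86 (SE 0.14, 3.63-fold, adjusted p = 0.00638), a call that held without any 1 library (up to 0.0446). Of the 10 measured genes for abscisic acid, cold and drought it was the only call, against falls in 0.103% of all tested, and the list median was -0.10. COR15B, its close copy in sequence, was dim in both groups, at 2.99, 3.21 and 3.84 in wild type and 2.81, 2.51 and 2.66 in aladin (-0.69, SE 0.21, adjusted p = 0.270), and KIN2, another cold-induced gene, differed by -0.33 (SE 0.15, adjusted p = 0.443) with overlapping values.

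Single falls, each read against the 0.103% of all tested that fell, were also seen in lists of auxin, cell wall and MADS-box genes. GH3.9, of the family of enzymes that join auxin to amino acids, had 7.83, 7.97 and 7.69 in wild type and 6.93, 7.01 and 6.90 in aladin (-0.88, SE 0.11, adjusted p = 0.0328). All aladin values were below the wild-type values, and of the 8 measured auxin genes (median -0.05) it was the only call, WES1, which is GH3.5, having 0.57 (adjusted p = 0.459). XTH33, of the enzymes that cut and rejoin xyloglucan in the wall, went from 8.06, 7.88 and 7.86 to 6.35, 6.81 and 6.49 (-1.39, SE 0.14, adjusted p = 0.0131). The other 9 measured genes of that family did not pass, and the family median was -0.02. TBL36, of a family that acetylates wall polysaccharides, fell by 0.83 (SE 0.12, adjusted p = 0.0452), from 9.22, 9.26 and 9.02 to 8.47, 8.29 and 8.24. It was 1 of 24 measured TBL genes, 17 of which had a negative difference (median -0.14). PRXCA, peroxidase 33, a secreted class III peroxidase, had 7.95, 8.06 and 8.07 in wild type and 6.71, 6.64 and 7.12 in aladin (-1.20, SE 0.14, adjusted p = 0.0296). The peroxidase list holds only the 8 measured genes that the annotation names as peroxidases. Genes named by locus only, among them the falls AT2G18150, AT2G38380 and AT4G36430, are not counted in it whatever their family. The list therefore does not describe the whole peroxidase family. Among its other members AT5G64120, which the reference also calls PRX71, had 0.71 (adjusted p = 0.273). The TBL and peroxidase lists were chosen after their values were seen. AGL24, a MADS-box gene that promotes flowering, had 6.84, 7.28 and 6.79 in wild type and 5.74, 5.96 and 5.60 in aladin (-1.20, SE 0.16, adjusted p = 0.0432) and was the 1 call among 68 measured MADS-box genes, whose median was 0.03. Most MADS-box genes were dim, with a median wild-type shoot signal of 3.61 against 5.71 over all tested. The lack of other calls therefore says little about that family. GH3.9, TBL36 and AGL24 did not pass once any 1 library was left out (adjusted p up to 0.141 and 0.166 without aladin replicate 1 for GH3.9 and AGL24, and up to 0.187 without wild-type replicate 2 for TBL36). XTH33 passed only without aladin replicate 2 and PRXCA only without aladin replicate 3 (otherwise up to 0.0867 and 0.146, both without wild-type replicate 2). After quantile normalization the calls of TBL36 and AGL24 ended (0.0512 each), and that of TBL36 also ended with median centring (0.0535).

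The largest fall was that of AT2G18150, which the reference names by locus only. It had 7.29, 7.48 and 7.38 in wild-type shoot and 5.03, 4.54 and 5.31 in aladin shoot, a fall of 2.43 log2 units (SE 0.19, 5.38-fold, adjusted p = 0.00638). AT2G16660 fell by 1.54 (SE 0.12, adjusted p = 0.00638), from 7.91, 7.75 and 8.10 to 6.31, 6.42 and 6.40. In both genes every aladin library was lower, and both passed without any 1 library (up to 0.0460 and 0.0436). AT3G60650 fell by 1.58 (SE 0.20, adjusted p = 0.0328), AT3G05640 by 1.37 (SE 0.20, adjusted p = 0.0472), AT2G38380 by 1.17 (SE 0.11, adjusted p = 0.01) and AT4G36430 by 1.05 (SE 0.15, adjusted p = 0.0472). AT3G60650 and AT3G05640 did not pass once any 1 library was left out (up to 0.149 and 0.187, without wild-type replicate 2), AT2G38380 did not without any 1 wild-type library (up to 0.0718), and AT4G36430 passed only without aladin replicate 3 (otherwise up to 0.178, without aladin replicate 1). The AT3G05640 call also ended after quantile normalization (0.0512). The other falls, AT5G44400, AT1G11850, AT5G06040, AT4G15680 and AT1G33700, were between -0.71 and -0.94.

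Of 11 measured nuclear photosynthesis genes none passed, where 0.332% of all tested did, and the median was -0.01. RCA, Rubisco activase, gave 12.68, 12.77 and 12.74 in wild type and 12.71, 12.73 and 12.71 in aladin. LHCB4.3, a light-harvesting protein of photosystem II, was the lowest, with 6.56, 6.87 and 6.66 against 6.16, 5.95 and 5.98 (-0.67, SE 0.12, adjusted p = 0.0923). In the plastid genome rps16, a ribosomal protein gene, rose by 0.64 (SE 0.09, adjusted p = 0.0472), from 11.83, 11.74 and 11.84 to 12.44, 12.43 and 12.46. This was the 1 call among 63 tested plastid genes, where 0.229% of all tested rose, and the call ended once any 1 library was left out (0.107 to 0.193, the latter without wild-type replicate 2). The 17 plastid ribosome and polymerase genes had a median of 0.14, with rpoB and rpoC1 at 0.42 (adjusted p = 0.203 and 0.210), and the 10 NDH genes had a median of 0.10 with none past the threshold. Values did not overlap and were higher in aladin for 7 of the 10 NDH genes and 7 of the 17, against 8% of all tested. An unadjusted p under 0.05 (limma) was found for 0 of the 10 and 4 of the 17, against 11.9% of all tested. The 28 plastid photosystem, cytochrome and ATP synthase genes had a median of 0.02 and no call. Of these 28, 8 had higher and 1 had lower values without overlap, and 2 had an unadjusted p under 0.05.

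The 4 measured genes of the stomatal lineage and the 5 of mitosis held no call, where 0.332% of all tested passed. SPCH, the bHLH gene that starts the stomatal lineage, had 9.18, 9.25 and 9.58 in wild type and 8.58, 8.60 and 8.36 in aladin, a difference of -0.82 (SE 0.14, adjusted p = 0.0772). MUTE, which acts after SPCH, had 5.54, 5.04 and 5.33 in wild type and 4.12, 4.03 and 4.96 in aladin (-0.93, SE 0.26, adjusted p = 0.223). For both, all aladin libraries were lower, whereas FAMA, written FMA in the annotation (-0.10), and STOMAGEN (0.09) overlapped between the groups. The mean signal over the 3 measured of 10 stomatal lineage markers was 7.45 to 7.72 in wild-type shoot and 6.90 to 7.11 in aladin shoot, and its part in the other differences was not tested. In whole shoots, fewer cells of this lineage and less RNA per cell cannot be told apart. SPCH lies 2 reference genes from AT5G53230, and the gene between them, AT5G53220, had a difference of 0.27 (adjusted p = 0.335). The 5 measured cell cycle genes, the Aurora kinases AUR1 (-0.37), AUR2 (-0.25) and AUR3 (-0.38), 3xHMG-box1 (-0.28) and the replication gene PRL (-0.17), had adjusted p values from 0.200 to 0.582. In each of them the aladin values lay below all wild-type values, against 11% of all tested, and the 5 histone genes had a median of -0.09 with overlapping groups.

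**Figure D3:**
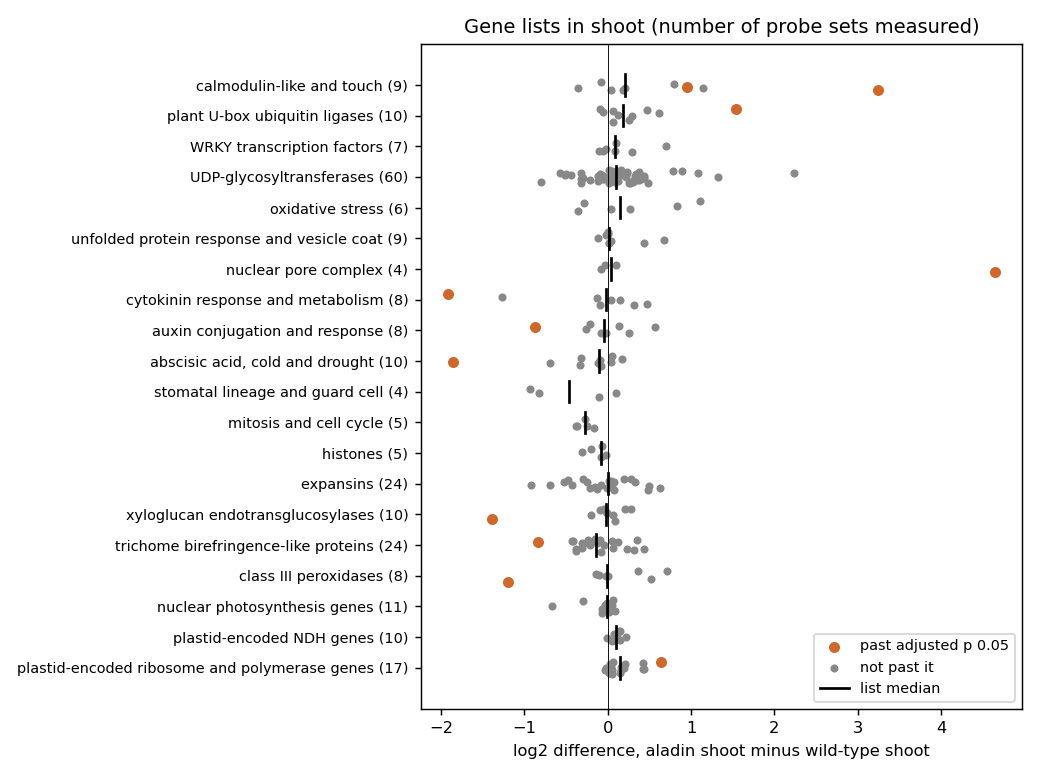
The log2 difference (aladin shoot minus wild-type shoot) of each measured member of 20 gene lists, with the number of members in brackets. Orange points passed an adjusted p of 0.05, grey points did not, and the black bar is the median of the list, which lies between -0.46 (stomatal lineage) and 0.21 (calmodulin-like and touch) in the lists shown.

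Some larger differences did not pass. UGT76B1, a glucosyltransferase of defence metabolism, gave 5.94, 5.25 and 5.67 in wild type and 8.44, 6.34 and 8.78 in aladin. Aladin replicate 2 was more than 2 log2 units under the others, and the difference of 2.23 (SE 0.58) did not pass (adjusted p = 0.202). Without that library it was 2.99 and passed (adjusted p = 0.0207). Leaving out the lowest aladin library raises the difference by construction, so this pass adds no support for a rise. UGT73B5 had 5.22, 5.19 and 5.82 against 6.96, 6.42 and 6.81 (1.32, SE 0.21, adjusted p = 0.0719). Of the 60 measured UDP-glycosyltransferases none passed, 40 had a positive difference, 15 had higher, non-overlapping values against 8% of all tested, and the median was 0.10. DFR, the anthocyanin enzyme dihydroflavonol reductase, had 9.74, 9.84 and 8.87 in wild type and 9.06, 6.67 and 8.10 in aladin (-1.54, SE 0.56, adjusted p = 0.342), and its groups overlapped. UF3GT, which adds a sugar to anthocyanins, differed by -0.80 (SE 0.31, adjusted p = 0.365). MSRB8 and MSRB9, methionine sulfoxide reductases that repair oxidised proteins, had differences of 1.11 (SE 0.28) and 0.83 (SE 0.20) and did not pass (adjusted p = 0.194 and 0.177). Without aladin replicate 2 MSRB8 passed (1.45, adjusted p = 0.0401) and MSRB9 did not (1.05, adjusted p = 0.0756). That library was again the lowest in aladin for both genes, so the MSRB8 pass adds no support for a rise. BZIP60, which codes for a transcription factor that counters protein misfolding, had 6.95, 6.49 and 6.87 against 7.41, 7.24 and 7.69 (0.68, SE 0.17, adjusted p = 0.177).

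Of the gene lists with at least 3 measured members, 30 were fixed with the design, with earlier results of these data known. Of these 30, 8 held a call and 22 held none, and the nuclear pore list was among the 8 only through ALADIN itself. The 4 lists picked after their values were seen each held a call. Beside the genes described, EXPA9, a wall-loosening expansin, came nearest, with 7.39, 7.46 and 7.54 in wild type and 6.62, 6.28 and 6.74 in aladin (-0.92, SE 0.14, adjusted p = 0.0559). The 24 expansins had a median of 0, and 10 of them had an unadjusted p under 0.05 (4 higher and 6 lower), against 11.9% of all tested. Values did not overlap and were lower for 7 and higher for 3, against 11% and 8% of all tested, and none passed an adjusted p of 0.05. SWEET1, a sugar transporter, had a difference of -0.83 (SE 0.14, adjusted p = 0.0767) and GSTU20, a glutathione transferase, of -0.65 (SE 0.12, adjusted p = 0.0927). The 83 defensin-like peptide genes had a median of -0.07 and ran from -0.46 to 1.48, the latter being PDF1.4 with 5.08, 4.48 and 4.68 against 6.18, 5.04 and 7.45 (SE 0.53, adjusted p = 0.335). Most of the 83 were dim, with a median wild-type shoot signal of 3.21 against 5.71 over all tested. The cytochrome P450 (24 measured), CLE peptide (16), RALF peptide (18), Aux/IAA (8) and nitrate and phosphate (15) lists had medians between -0.11 and -0.01 and no call.

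The root libraries of the same genotypes, which share no array with the shoot comparison, were fitted on their own and gave 1793 calls (10.3%, with 5.65% higher and 4.61% lower). Shoots were cut from roots, so samples of the 2 organs may come from the same seedlings or the same growth. What such seedlings shared would appear in both organs, so the root is not a separate check of the shoot calls. Of the 58 shoot calls, 38 also passed in root, all in the same direction, which is 65.5% of the shoot calls and 2.12% of the root calls. Of the 40 shoot rises 31 rose in root, and of the 18 shoot falls 7 fell. The median root difference was 1.05 for the shoot rises, whose shoot median was 1.36, and -0.12 for the falls, whose shoot median was -1.19. Values did not overlap in root for 33 of the rises, which were higher (13.4% of all tested), and for 8 of the falls, which were lower (18.3% of all tested, and 31.7% in either direction). ALADIN (4.29 in root), STZ (2.1), AR781 (2.08) and PUB23 (1.48) rose in both organs, and AT2G18150 (-1.47), ARR15 (-1.0) and XTH33 (-0.65) fell in both. The 9 rises without a root call included THI2.2 (0.20 in root), PUP15 (-0.07) and both TPS-CIN probe sets (0.21 and 0.18), and the 11 falls without one included COR15A (0.02), GH3.9 (0.32), PRXCA (0.64) and AGL24 (-0.17).

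Whether the shoot difference exceeded the root difference was tested with an interaction term on all 12 libraries, with 1 estimate of the spread, which 375 probe sets (2.15%) passed. Among the 58 shoot calls 22 passed. The 58 were selected for their shoot difference on libraries that also enter this test. That choice favours differences larger in shoot, so the counts below do not measure how often the organs differ. In 10 rises the difference was larger in shoot, among them AT5G53230 (by 2.07, SE 0.32, adjusted p = 0.00568), STZ (by 1.15, SE 0.26, adjusted p = 0.0460), AT5G45840 (by 1.28, SE 0.14, adjusted p = 0.000547) and PUP15 (by 1.25, SE 0.23, adjusted p = 0.0155). In 3 rises it was smaller in shoot, namely AT3G56920, AT3G45730 and AT1G17960. In 9 falls the fall was larger in shoot, among them COR15A (-1.88, SE 0.34, adjusted p = 0.0164), GH3.9 (-1.20, SE 0.15, adjusted p = 0.00171) and AT3G60650 (-1.88, SE 0.25, adjusted p = 0.00265). Mean wild-type root signals of these 9 ran from 3.73 (AT4G15680), 3.78 (AT1G11850) and 4.30 (GH3.9) up to 9.40 (AT1G33700). A gene that is dim in root has little room to fall there. The part of low root signals in these differences between organs was not tested. For AGL24 (adjusted p = 0.0639), PRXCA (0.0585), THI2.2 (0.102) and ARR15 (0.229) the difference between organs did not pass. The STZ interaction ended with each of 5 single shoot libraries left out, all but wild-type replicate 2 (adjusted p up to 0.0872 over its alternatives).

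**Figure D4:**
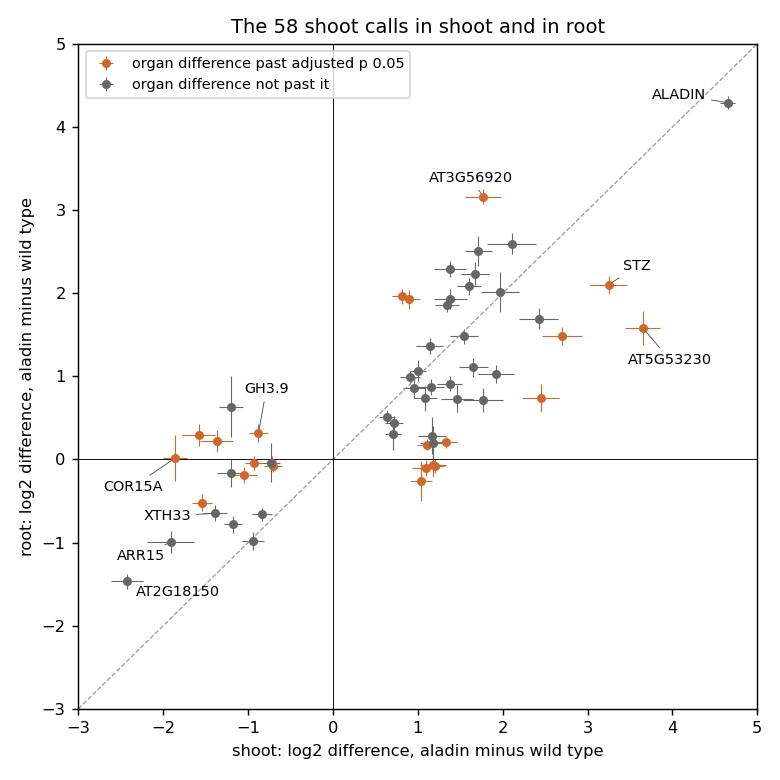
Log2 differences (aladin minus wild type) of the 58 shoot calls, in shoot on the horizontal axis and in root on the vertical axis, with SE bars from the fit of each organ alone. The dashed line marks equal differences, and the 22 orange points passed the test of the difference between organs, with falls such as COR15A lying near 0 in root.

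The count of shoot calls fell with any 1 library left out, which also leaves fewer samples, and the 2 effects were not separated. The count was 11, 11 and 10 without wild-type replicate 1, 2 or 3 and 9, 42 and 36 without aladin replicate 1, 2 or 3. Of these, 10, 11 and 10 and 9, 24 and 30 were among the 58. The calls that passed whichever 1 library was left out were 6, namely ALADIN, AT5G53230, STZ, AT2G18150, COR15A and AT2G16660, and 23 passed in 0 of the 6 fits. No called difference changed sign in any of them, which was fixed in advance because the groups did not overlap for any call. With 1 estimate of the spread over all 12 libraries 518 probe sets passed (2.96%), 56 of the 58 among them, and the median absolute difference was 1.34 for these 56 and 0.58 for the 462 that passed only with the shared spread. PRXCA and AT5G06040 passed with the shoot spread alone. With all 38408 probe sets of the table tested 10 passed, 5 of the 58 among them. Within-group SDs were larger in shoot than in root for 69.7% of the tested probe sets.

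**Figure D5:**
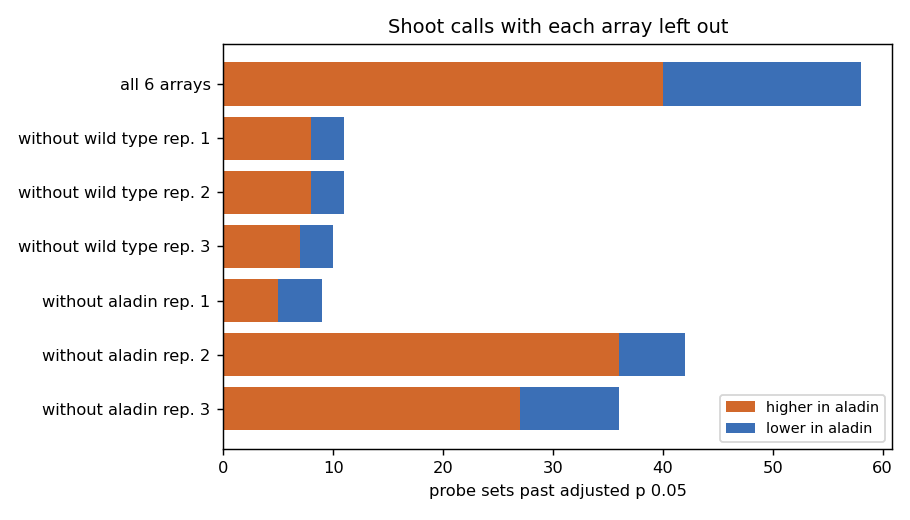
Number of probe sets past an adjusted p of 0.05 in shoot with all 6 libraries and with each library left out, split into those higher (orange) and lower (blue) in aladin. The count falls from 58 to 9 without aladin replicate 1 and is 42 without aladin replicate 2, of which 24 are among the 58.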

How the data were processed

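Total RNA was labelled with biotin and hybridised to single-colour arrays. The values that the authors deposited are log2 signals, and RMA is the tool named in the submitters' processing notes. Its software, summary level and genome build were not given in the sources used here. Probe sets were named through the supplied platform annotation, and RefSeq (assembly GCF_000001735.4, TAIR10.1) supplied symbols and gene order for 16574 of 16722 single-gene probe sets. A further 759 probe sets name several genes, and 20927 without a named gene were left out. Groups came from the titles. R 4.3.3 with limma 3.58.1 (lmFit, eBayes) was fitted to the 6 shoot arrays without a replicate block (residual df 4, prior df 3.56), Benjamini-Hochberg adjustment ran over 17481 probe sets, and the threshold was 0.05. Root was fitted the same way, and the interaction on all 12 arrays. The script was tested on simulated data.

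The members, the 52 gene lists and the tests were chosen with earlier results of these data known. The named genes were ALADIN and the 2 nearest measured genes on each side, the 12 largest rises and 12 largest falls among single-gene calls without overlap, per list the calls and up to 3 members with the smallest p, and the 10 calls with the smallest interaction p. Other genes named here (among them MUTE, RCA, PRL and AUR2) were chosen after their values were seen. Alternatives covered another prior, dropping dim probe sets, testing more or fewer probe sets, rescaling, array weights, a replicate block and leaving out each library. A search of promoters for motifs was planned and not run, and no sequences are used here. Python 3.11 and matplotlib 3.10.9 drew the figures.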

Additional observations from a re-analysis of the deposited data

Results flagged for a closer look

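The genotype difference in shoot minus that in root passed an adjusted p of 0.05 (limma, interaction term on all 12 libraries) for 375 probe sets, 2.15% of all tested. Among the named and called genes 35 passed, 22 of them shoot calls and 13 not. These genes were chosen in part by their shoot difference or their interaction p, so the 35 are listed and not read as a share. The values below are the difference in shoot minus that in root, in log2 units. A positive value means a higher aladin signal, relative to wild type, in shoot than in root.

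Shoot rises with a larger difference in shoot were AT5G53230 (2.07), AT2G23321 (1.70), AT3G22961 (1.30), AT5G45840 (1.28), PUP15 (1.25), AT5G53240 (1.21), AT3G22240 (1.2), STZ (1.15) and the 2 TPS-CIN probe sets (1.13 and 0.93). The rises of AT3G56920 (-1.39), AT3G45730 (-1.16) and AT1G17960 (-1.03) were smaller in shoot than in root, where they were 3.16, 1.97 and 1.93. Shoot falls with a larger fall in shoot were COR15A (-1.88), AT3G60650 (-1.88), AT3G05640 (-1.59), GH3.9 (-1.2), AT2G16660 (-1.02), AT1G11850 (-0.89), AT4G36430 (-0.86), AT4G15680 (-0.68) and AT1G33700 (-0.63). Some of these falls, such as GH3.9, AT1G11850 and AT4G15680, were dim in wild-type root, which leaves little room for a fall there.

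Among genes without a shoot call, GRX480, a glutaredoxin, had a root difference of 2.01 against -0.06 in shoot (-2.07), CML38 one of 2.81 against 0.79 (-2.02), HPR, the photorespiratory hydroxypyruvate reductase, one of 1.27 against 0.08 (-1.18), and PUB22 one of 1.36 against 0.47 (-0.89). EXPB2, a beta-expansin, had -1.81 in root and -0.48 in shoot (1.33). EXPA9 had -0.92 in shoot and 0.30 in root (-1.22), and SWEET1 had -0.83 in shoot and 0.18 in root (-1.0). Smaller differences between organs were those of AT3G56891 (0.84), AGL42 (0.79), AT1G33440 (0.77), AT3G56890 (0.67), GH3.17 (0.59) and CLE20 (-0.78).

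Of the 35, 23 passed under all 8 alternatives of this fit (array weights, a replicate block and each shoot library left out). AT3G56920, EXPB2 and AT1G33700 did not pass with the replicate block (adjusted p = 0.0752, 0.0602 and 0.0927). The difference for AT3G22961 passed in 1 of the 8 alternatives, that for STZ in 2, those for AT3G56890, AT4G36430, GH3.17 and CLE20 in 3, and those for AT5G53240, AGL42 and AT1G33440 in 4, with adjusted p values up to 0.108.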

How the results depend on the processing

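ALADIN stayed a call under every alternative tried, with differences from 4.63 to 4.68. Against 58 shoot calls, 518 passed with the spread of all 12 libraries, 309 with a trend and robust prior, 10 with all 38408 probe sets tested and 9 at an adjusted p of 0.01. Dim probe sets left out gave 63, single-gene probe sets 53, quantile normalization 50, median centring 61, array weights 55 and a 2-fold minimum 44. With each library left out in turn, which also leaves fewer samples, the count ran from 9 to 42. The calls kept under every alternative were 5, namely ALADIN, AT5G53230, STZ, COR15A and AT2G16660. Sharing the replicate numbers gave no sign of pairing, since deviations of same-numbered libraries correlated at 0.01, -0.04 and 0.001, and with the replicate block 28 probe sets passed, 24 of them among the 58. The interaction count was 375, 420 with array weights, 242 with the replicate block and 284 to 374 with a library left out. Signs of 6 uncalled genes turned with a library left out, over ranges of -0.148 to 0.053 (NUP1), -0.204 to 0.038 (ROXY2), -0.185 to 0.065 (GRX480), -0.143 to 0.13 (AT4G02300), -0.362 to 0.004 (EXPA18) and -0.109 to 0.153 (PUP19), and the cause was not tested. No detection calls are used here, so dim genes cannot be told from background. The promoter motif search was not run.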
